A study of Mus musculus with 217 samples.

Results

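Phex, Ank, Smpd3 and Slc13a5 are 4 of the 9739 genes in the deposited expression table, grouped because each acts on the supply of phosphate, pyrophosphate, phosphocholine or citrate around mineralizing matrix. All 4 were measured. Growth plates of the tibia were microdissected from C57/BL mice of wild-type genotype at an age of 7 postnatal days, and every cell belongs to this 1 group, with no animal named. Full-length polyA cDNA was made from each of 217 cells with SMARTer chemistry and sequenced as Nextera XT libraries. Deposited log2 values are called levels here. A gene counts as detected where its back-transformed value is at least 1, which is a level of at least 1.

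The growth plate is a column of cartilage in which chondrocytes divide, enlarge and finally mineralize the matrix around them. Prehypertrophic cells secrete Indian hedgehog (Ihh), hypertrophic cells secrete collagen X (Col10a1), and the cells next to bone make bone sialoprotein (Ibsp), a mineral-binding matrix protein shared with osteoblasts. Whether crystals form depends on the balance of phosphate, which feeds them, and inorganic pyrophosphate, which blocks their growth. Phex is a membrane endopeptidase of osteoblasts and osteocytes whose loss causes X-linked hypophosphataemia with raised FGF23. Ank is a multipass membrane protein needed for export of pyrophosphate, and mice that lack its function deposit mineral in their joints. Smpd3, neutral sphingomyelinase 2, splits sphingomyelin into ceramide and phosphocholine, and its loss in the mouse leaves bone and cartilage poorly mineralized. Slc13a5 is the sodium-coupled citrate transporter of the plasma membrane, and citrate is bound in bone mineral.

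The 217 columns held 23 sets of 2 or more columns with r above 0.95, 52 columns in all, and each set was averaged as repeats of 1 profile. Together with the removal of 1 mixed column this left the distinct profiles that are counted below by class. The cartilage proteoglycan gene Acan split them cleanly, with 11 profiles below a level of 5 (highest 2.91), all others at or above it (lowest 6.67) and none from 4 to 6. The profiles with Acan at least 5 are called chondrocytes. Among the 11 cartilage markers other than Acan, the median marker was detected in 18.2% of the 11 profiles below 5 and in 100% of the chondrocytes. A profile had a median of 3433 genes detected, with a range of 1326 to 4994. The chondrocytes were ordered by marker into 29 with none of Col10a1, Ihh and Ibsp, 69 with Col10a1 alone, 41 with Ihh but no Ibsp, and 37 with Ibsp. Median genes detected rose along the same order, at 2954, 3347, 3523 and 3682, and was 2757 in the profiles with Acan below 5. All cells form 1 sample, so intervals cover counting error only, differences carry no p-value, and no comparison has a replicate check.

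Among repeats of the same profile the SD of the level was 0.54 for Phex, 0.63 for Ank, 0.29 for Smpd3 and 0.30 for Slc13a5. Between profiles it was 2.19, 3.07, 2.56 and 2.50 in the same order. Detection was the same in every repeat of a set for Smpd3 and Slc13a5. Phex was detected in all columns of 3 sets, in some columns only of 1 and in none of 19. For Ank these counts were 11, 3 and 9. Of the class markers, Ibsp was detected in all columns of 3 sets, in some only of 4 and in none of 16, with an SD of 0.74. Col10a1 was detected in some columns only in 2 sets, and Ihh in no set. Among the chondrocytes, 8 had Ibsp within 1 above the detection threshold and 10 had it above 0 but undetected. The repeats were found by their likeness, which holds their SD down, and error from capture or dropout between separate cells is not covered.

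In mm10 coordinates of the GENCODE annotation, Slc13a5 lies at chr11:72241989-72267222 on the minus strand, Smpd3 at chr8:106252548-106337988 on the minus strand, Phex at chrX:157162075-157415312 on the minus strand and Ank at chr15:27466677-27594909 on the plus strand. Each of the 4 overlaps an annotated gene on the opposite strand, a predicted miRNA in the case of Phex and the deubiquitinase gene Otulin in that of Ank, and reads of the overlapping stretches cannot be told apart where counting ignores strand. 1700051A21Rik, which overlaps Slc13a5, was detected in 5.11% of the chondrocytes, its mean was 0.24 higher with Col10a1 than without, and its level had a Spearman rho of 0.28 with that of Slc13a5. Prmt7, an arginine methyltransferase gene that overlaps Smpd3, was detected in 33.5% of them, and its level had a rho of 0.07 with that of Smpd3. Its mean was 1.64 with Col10a1 and 0.73 without, a difference of 0.91, and the difference was -1.09 with Acan below 5, so that it moved the same way as Smpd3 in both contrasts. The part of the overlapping genes in these results was not tested.

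The stretches before the start sites are shown because Slc13a5 followed Col10a1 most closely of the 4, while Phex followed it more weakly and Ank had a rho near 0 with it. Smpd3, which had a rho of 0.41 with Col10a1, is left out because no promoter sequence for it was at hand. Each sequence is the 250 bases before a RefSeq start in build GRCm38.p6, written 5′ to 3′ on the gene's strand, with motif matches in capitals. Of the motifs searched on both strands, the first was the TATA box, spelled TATAAA. Another was the GC box, spelled GGGCGG, of which Ank holds a pair that overlap. The last was the core site of RUNX factors, spelled TGTGGT.
Col10a1, chr10:34389731-34389980, plus strand: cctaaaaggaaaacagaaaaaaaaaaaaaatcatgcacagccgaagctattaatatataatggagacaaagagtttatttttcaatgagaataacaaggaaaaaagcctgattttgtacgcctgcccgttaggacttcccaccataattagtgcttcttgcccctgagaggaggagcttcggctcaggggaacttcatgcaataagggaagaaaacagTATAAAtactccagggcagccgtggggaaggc
Slc13a5, chr11:72267162-72267411, minus strand: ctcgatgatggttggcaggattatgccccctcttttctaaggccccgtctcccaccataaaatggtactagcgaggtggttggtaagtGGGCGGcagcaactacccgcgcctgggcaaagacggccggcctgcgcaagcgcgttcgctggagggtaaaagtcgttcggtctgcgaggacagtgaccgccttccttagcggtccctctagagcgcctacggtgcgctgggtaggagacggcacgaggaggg
Ank, chr15:27466427-27466676, plus strand: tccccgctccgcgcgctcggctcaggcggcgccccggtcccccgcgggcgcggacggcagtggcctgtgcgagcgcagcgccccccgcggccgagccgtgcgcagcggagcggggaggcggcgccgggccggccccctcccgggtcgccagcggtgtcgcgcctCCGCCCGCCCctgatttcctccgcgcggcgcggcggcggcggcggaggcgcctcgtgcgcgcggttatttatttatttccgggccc
Phex, chrX:157415287-157415536, minus strand: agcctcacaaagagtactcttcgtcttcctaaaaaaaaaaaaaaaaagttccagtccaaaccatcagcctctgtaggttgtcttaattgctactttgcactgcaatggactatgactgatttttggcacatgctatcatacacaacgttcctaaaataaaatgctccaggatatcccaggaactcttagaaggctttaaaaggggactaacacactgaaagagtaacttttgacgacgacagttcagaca

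The Col10a1 stretch had a TATA box 32 bases before its start, found in 12.4% of 32851 mouse promoters of that length, and a GC content of 41.6%. The Slc13a5 stretch had no TATA box and 1 GC box, a motif in 32.7% of promoters, with 61.6% GC. A further Slc13a5 start at chr11:72266605-72266854 had 3 GC boxes and 65.6% GC. The Ank stretch was the most GC-rich of these at 81.2%, and the Phex stretch held none of the 3 motifs at 39.2% GC. The RUNX core, found in 14.05% of promoters, was in none of the 5 windows.

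Slc13a5, the citrate transporter, was the member that separated most by Col10a1. It was detected in 81.02% of chondrocytes with Col10a1 (exact 95% interval 73.4 to 87.2), against 11 of the 39 without, 28.2% (15.001 to 44.9). Its levels ran from 0 through a median of 4.51 to 7.66 with Col10a1, against 0, 0 and 6.001 without. The groups overlapped, but most profiles without Col10a1 sat at 0 and most with it did not. The mean level was 3.92 ± 2.32 with Col10a1 and 0.99 ± 1.64 without (SD over profiles), a difference of 2.93 that ranked 5 among the 9739 genes.

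Smpd3, the sphingomyelinase, was nearly always on and differed in level. It was detected in all but 2 of the chondrocytes with Col10a1, 98.5% (94.8 to 99.8), against 32 of 39 without, 82.1% (66.5 to 92.5). Levels with Col10a1 had a median of 7.87 and a highest value of 10.16, against 5.87 and 9.65 without, and both groups reached 0. The mean level was 7.50 ± 1.84 with Col10a1 and 4.97 ± 2.93 without, a difference of 2.53 that ranked 14. Slc13a5 and Smpd3 were thus 2 of 4 members with a mean difference of at least 1 upwards, while 5.52% of all genes passed that size. No member passed it downwards, against 0.821% of genes. The members were chosen with earlier results of these data known, so these shares are background and not a test. The median gene was 0.13 higher with Col10a1, and profiles with Col10a1 had a median of 3542 genes detected, against 3025 without. With genes detected regressed out, the differences were 2.25 for Slc13a5 and 1.85 for Smpd3. The summed level of 8 osteoblast markers had a median of 11.7 with Col10a1 (0 to 60.7), against 10.9 without (0 to 21.1). In profiles with fewer than 3 of those markers detected, Slc13a5 was found in 80.3% with Col10a1 (68.7 to 89.1), against 25.9% without (11.1 to 46.3).

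**Figure D1:**
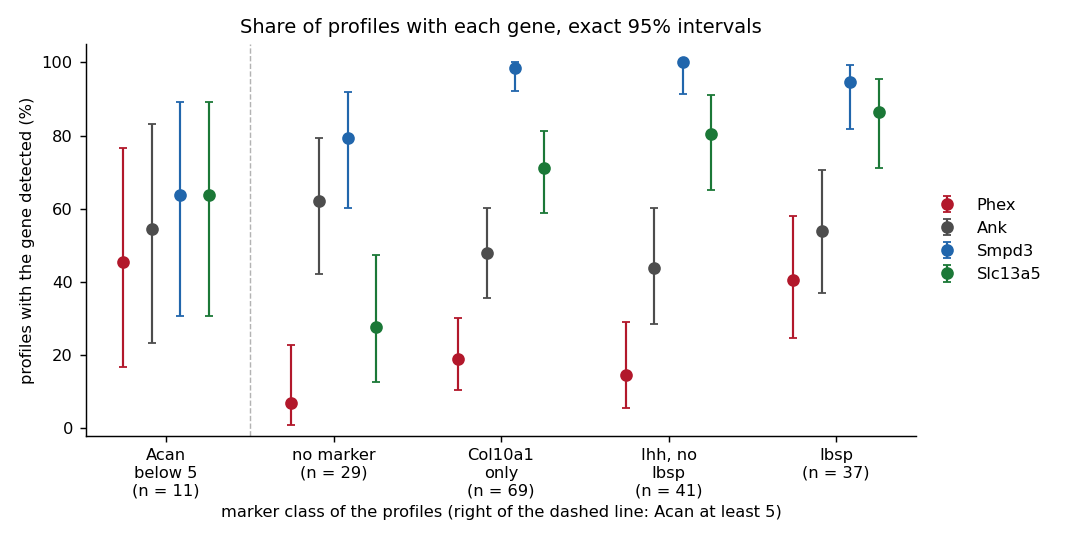
Percent of profiles in which each gene was detected (y axis) in the 11 profiles with Acan below 5 and in the 4 marker classes of the chondrocytes (x axis), with bars for exact 95% intervals that cover counting error only. Slc13a5 stood at 27.6% with no marker and at 71.01% or more in the other 3 classes, and Phex reached 40.5% in the class with Ibsp.

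Along the order of marker classes, Slc13a5 was detected in 8 of 29 profiles with no marker, 27.6% (12.7 to 47.2), in 49 of 69 with Col10a1 alone, 71.01% (58.8 to 81.3), in 33 of 41 with Ihh but no Ibsp, 80.5% (65.1 to 91.2), and in 32 of 37 with Ibsp, 86.5% (71.2 to 95.5). The step from no marker to Col10a1 alone exceeded the counting error, and the intervals of the 3 later classes overlapped. Median levels of Slc13a5 were 0, 3.95, 3.99 and 5.12 in the same order. Smpd3 was detected in 79.3% (60.3 to 92.006), 98.6% (92.2 to 99.96), 100% (91.4 to 100) and 94.6% (81.8 to 99.3) of these classes. Its median level was 5.22 with no marker, 7.41 with Col10a1 alone, 8.004 with Ihh and 8.17 with Ibsp. Both genes were thus also found in most cells with Col10a1 that had no detected Ihh or Ibsp. That class spans Col10a1 levels from 1.22 to 14.62, and the classes were set by marker, not by a measured stage.

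**Figure D2:**
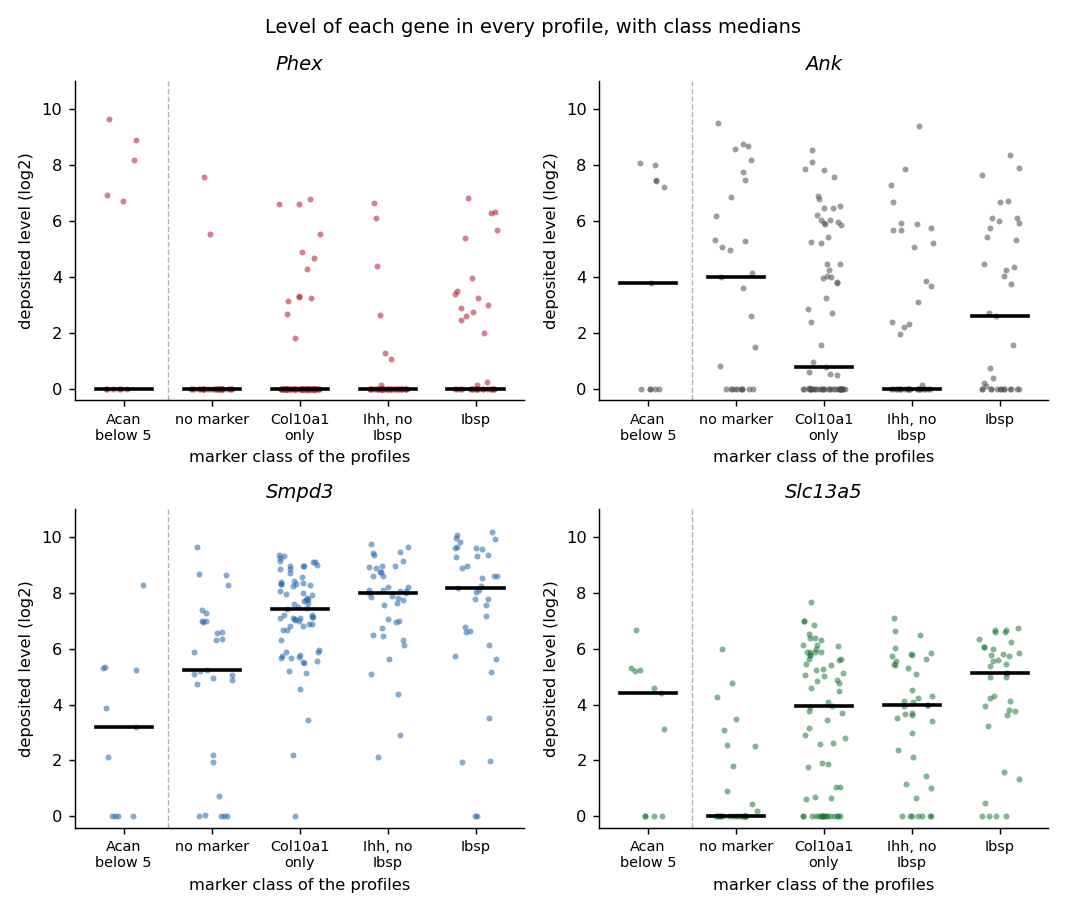
Deposited log2 level (y axis) of each gene in every profile, by class (x axis), with 1 point per profile and black bars for class medians. Smpd3 medians go up from 5.22 to 8.17 over the 4 classes, while the Phex median is 0 in every class.

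Marker combinations placed the Slc13a5 signal with Col10a1 more than with Ihh, on few cells. Of 7 profiles with Ihh but no Col10a1, 2 had Slc13a5, 28.6%, and all 7 had Smpd3. Of 34 profiles with Col10a1 and Ihh but no Ibsp, 31 had Slc13a5, 91.2%, and all 34 had Smpd3. In the 20 profiles with all 3 markers, Slc13a5 and Smpd3 were each detected in all 20, with median levels of 5.70 and 9.30. These combinations were set up after the values were seen.

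The level of Col10a1 carried a further gradient. Slc13a5 was detected in 28.2% of the 39 profiles without Col10a1, 73.7% of 19 at Col10a1 levels from 1 to 5, 72.1% of 68 at 5 to 10, and 96% of 50 at 10 or more. Its median level in these ranges was 0, 3.65, 3.94 and 5.64. Median Smpd3 was 5.87, 6.81, 7.84 and 8.27. Phex was detected in 5.13%, none of 19 (exact upper limit 17.6%), 20.6% and 40%, so that it was commonest among the strongest Col10a1 expressers. Ank had no such order, at 58.97%, 52.6%, 44.1% and 52%. Median genes detected in these ranges were 3025, 3347, 3560.5 and 3582.

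**Figure D3:**
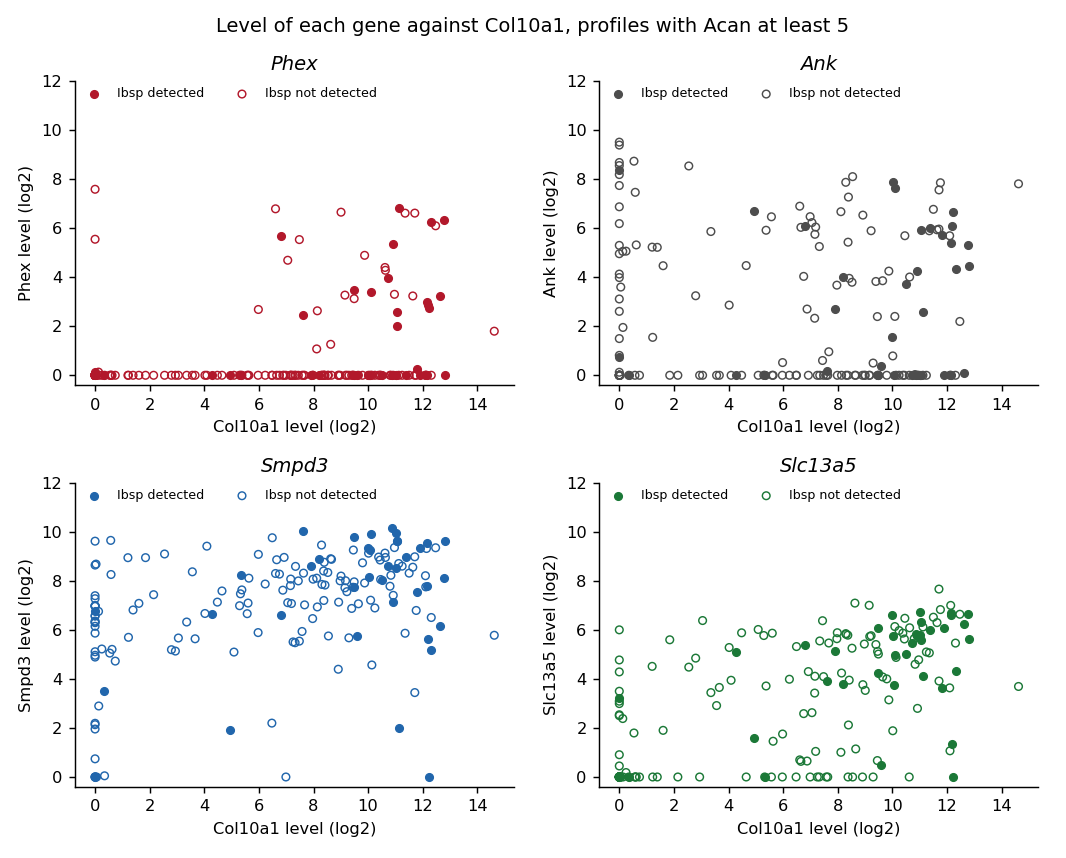
Level of each gene (y axis, log2) against the level of Col10a1 (x axis, log2) in the chondrocytes, with filled points where Ibsp was detected and open points where it was not. Slc13a5 points above 0 gather at high Col10a1, and most Phex points lie at 0 at every Col10a1 level.

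Slc13a5 and Smpd3 also varied together from cell to cell. Every chondrocyte profile with Slc13a5 also had Smpd3, while 45 had Smpd3 without Slc13a5 and 9 had neither. Median Smpd3 was 8.002 where Slc13a5 was detected, against 5.72 where it was not. The Spearman rho between their levels was 0.51 over all chondrocytes, 0.47 with genes detected held constant and 0.38 within those with Col10a1. Profiles share their depth and their order along the growth plate, so these correlations only describe the cells.

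Across Ihh, the same genes were higher. Slc13a5 was detected in 86.9% of 61 profiles with Ihh (75.8 to 94.2), against 60% of those without (50.4 to 69.02), and its mean level was 4.11 ± 2.13 with Ihh and 2.82 ± 2.57 without, a difference of 1.29. Smpd3 was detected in all 61 profiles with Ihh (94.1 to 100%), against 92.2% without (85.7 to 96.4), and its mean was 7.87 ± 1.83 with Ihh and 6.45 ± 2.47 without, a difference of 1.42. These 2 of 4 members passed the size of 1, against 2.79% of all genes, and none passed downwards, against 0.205%. Median genes detected was 3684 with Ihh and 3306 without, and with genes detected regressed out both differences fell below the size, at 0.69 for Slc13a5 and 0.81 for Smpd3. Whether depth accounts for them was not tested.

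Across Ibsp, Slc13a5 was detected in 86.5% of 37 profiles with the marker, against 64.7% of those without (56.2 to 72.7). Its mean was 4.43 ± 2.16 with Ibsp and 2.96 ± 2.50 without, a difference of 1.46. It was the only member of 4 to pass the size of 1 upwards, against 6.53% of all genes, and none passed downwards, against 0.893%. With genes detected regressed out the Slc13a5 difference was 0.67, and median genes detected was 3682 with Ibsp and 3306 without. Smpd3 did not separate by Ibsp, at 94.6% detected with it and 94.96% without, with a mean difference of 0.55 that was -0.26 with genes detected regressed out.

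Phex, the endopeptidase, was the rarest of the 4 in chondrocytes, detected in 36 of them, 20.5% (14.8 to 27.2). It was detected in 2 of 29 profiles with no marker, 6.90% (0.846 to 22.8), 13 of 69 with Col10a1 alone, 18.8% (10.4 to 30.1), 6 of 41 with Ihh but no Ibsp, 14.6% (5.57 to 29.2), and 15 of 37 with Ibsp, 40.5% (24.8 to 57.9). The Ibsp class stood highest, beyond the interval of the class with no marker and overlapping those of the other 2. The highest Phex level was 7.59 in the first class, 6.79 with Col10a1 alone, 6.65 with Ihh and 6.804 with Ibsp, and the median was 0 in all 4. Where Phex was detected, its median was 6.57, 4.28, 3.51 and 3.38 in the same order, the first from 2 profiles. The classes thus differed in how many cells carried Phex more than in its highest level, and the Ibsp class had the lowest median where detected.

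Set over Ibsp as a whole, Phex was detected in 40.5% of profiles with Ibsp, against 15.1% of those without (9.60 to 22.2). The mean level was 1.64 ± 2.23 with Ibsp and 0.66 ± 1.74 without, a difference of 0.97, just under the size of 1, and of 0.65 with genes detected regressed out. With the detection threshold raised to 10 for Ibsp and Phex alike, 5 of 22 profiles with Ibsp had Phex, and the gap in detection was 13.6 percentage points in place of 25.4. Over Col10a1, Phex was detected in 34 profiles with it, 24.8% (17.8 to 32.9), against 2 of 39 without, 5.13% (0.627 to 17.3), with a mean difference of 0.67 that was 0.40 with genes detected regressed out. Over Ihh it was 27.9% with the marker (17.1 to 40.8) and 16.5% without (10.3 to 24.6), with a mean difference of 0.31 that was 0.07 with the same correction. In the 20 profiles with all 3 markers 11 had Phex, 55% (31.5 to 76.9), against 4 of the 14 with Col10a1 and Ibsp but no Ihh, 28.6%.

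Osteoblast markers moved with Ibsp, so the Phex result is given with and without the cells that carried most of them. The summed level of the 8 osteoblast markers had a median of 14.9 with Ibsp (0 to 60.7), against 10.9 without (0 to 34.004). Among profiles with fewer than 3 of the 8 detected, Phex was found in 4 of 11 with Ibsp, 36.4% (10.9 to 69.2), against 10 of 82 without, 12.2% (6.006 to 21.3). Among those with 3 or more it was found in 11 of 26 with Ibsp, 42.3% (23.4 to 63.1), against 11 of 57 without, 19.3% (10.05 to 31.9). A single chondrocyte profile stood apart with an osteoblast sum of 60.7, the next being 43.9, and it held Phex at 2.44 beside Col1a1 at 10.64 and Ibsp at 11.37. Without that profile Phex was detected in 14 of 36 profiles with Ibsp, 38.9%.

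Of the bone markers compared, some were more often detected in chondrocytes with Phex and others were not. Spp1, which encodes the mineral-binding protein osteopontin, was detected in 55.6% of the 36 profiles with Phex, against 16.4% of those without. Dmp1, an acidic phosphoprotein of osteocytes and mineralizing cartilage, was detected in 19.4% of profiles with Phex, against 3.57% without. Ifitm5, a membrane protein of osteoblasts, was at 30.6% against 11.4%, while Bglap, which encodes osteocalcin, was at 16.7% against 13.6%. Col1a1 was at 22.2% against 11.4%, Bglap2 at 30.6% against 23.6% and Col1a2 at 91.7% against 87.9%. The osteoblast genes Sp7 (50% against 44.3%), Serpinf1 (47.2% against 43.6%) and Runx2 (11.1% against 10%) differed little. Pdpn, an early osteocyte marker, was detected less often with Phex, at 8.33% against 17.1%. Slc13a5 was detected in 86.1% of profiles with Phex, against 65% without, and Ank in 61.1% against 47.9%. Median Col10a1 was 10.63 with Phex, against 6.81 without, and median genes detected was 3610 with Phex, against 3393 without.

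Ank, the pyrophosphate exporter, was the member that did not follow the markers upwards. It was detected in 89 chondrocyte profiles, 50.6% (42.9 to 58.2). By class it was found in 18 of 29 profiles with no marker, 62.1% (42.3 to 79.3), 33 of 69 with Col10a1 alone, 47.8% (35.6 to 60.2), 18 of 41 with Ihh but no Ibsp, 43.9% (28.5 to 60.3), and 20 of 37 with Ibsp, 54.1% (36.9 to 70.5). All 4 intervals overlapped. Median levels were 3.98, 0.79, 0 and 2.58 in the same order, and each class held cells above 8, with highest levels of 9.51, 8.54, 9.39 and 8.37.

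Ank detection was 48.2% with Col10a1 (39.6 to 56.9), against 58.97% without (42.1 to 74.4), and its mean level was 2.54 ± 2.86 with Col10a1 and 3.54 ± 3.46 without. The difference of -0.996 stopped just short of the size of 1 and was 81st from the lowest of all genes. It was -0.39 with repeats kept apart and -1.01 with genes detected regressed out, and by Ihh the difference was -0.67, 89th from the lowest. By Ibsp the means were close, at 2.89 ± 2.94 with the marker and 2.73 ± 3.05 without. The rho of Ank was -0.21 with Smpd3, -0.14 with Slc13a5 and -0.04 with Col10a1, all weak.

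**Figure D4:**
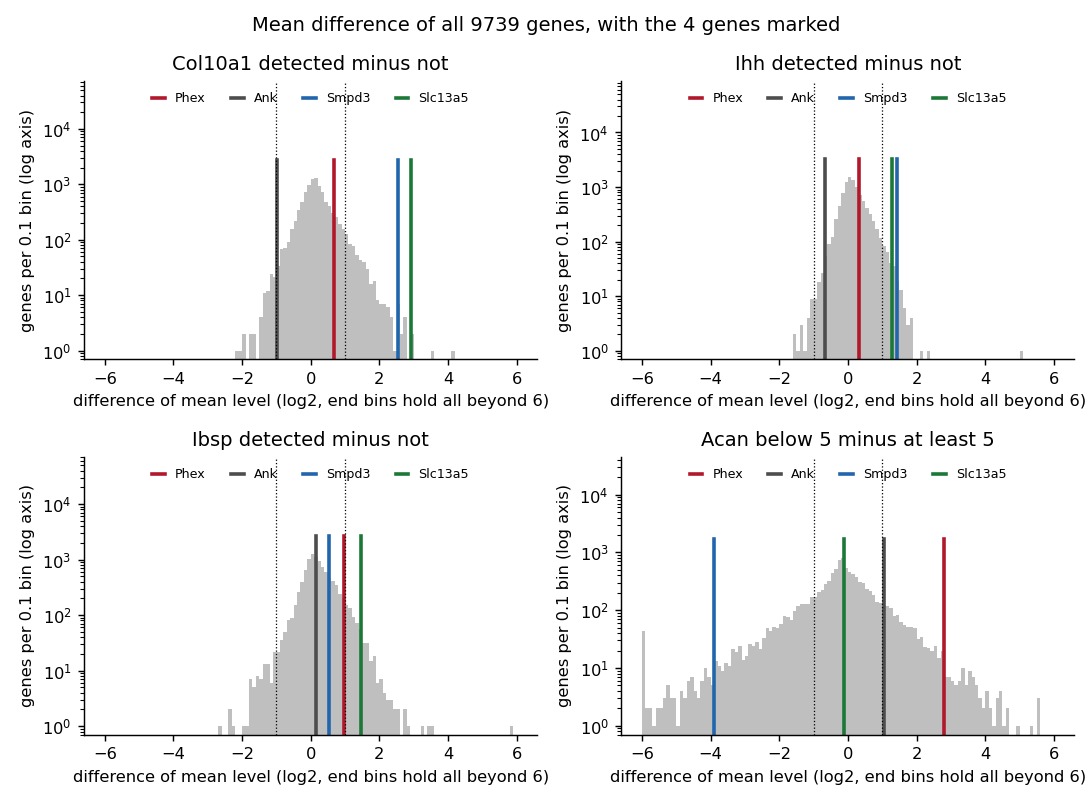
Number of genes (y axis, log scale) by difference of mean level (x axis, log2) in 4 contrasts, with grey bars for all 9739 genes, coloured lines for the 4 members and dotted lines at a difference of 1 either way. Slc13a5 at 2.93 and Smpd3 at 2.53 lie in the upper tail over Col10a1, and over Acan Phex lies at 2.80 and Smpd3 at -3.91.

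Seen per cell, profiles with all 4 genes were commonest in the Ibsp class, which also had the most genes detected. Of the 29 profiles with no marker none had all 4 genes, against 7 of 69 with Col10a1 alone, 2 of 41 with Ihh but no Ibsp, and 9 of 37 with Ibsp. At least 3 of the 4 genes were found in 7, 28, 18 and 24 profiles of these classes. Over all chondrocytes, 3 had none of the 4 genes, 27 had 1, 69 had 2, 59 had 3 and 18 had 4.

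In the 11 profiles with Acan below 5 several cartilage genes were mostly undetected, and several profiles held bone genes at high levels. Col9a1, Col9a2 and Matn3 were each detected in 2 of the 11, and Col9a3, Matn1 and Comp each in 1. Col11a1 was detected in 8, with a median of 8.50, Hapln1 and Sox9 in 6, and Lect1 and Col11a2 in 5. The summed level of the 8 osteoblast markers had a median of 51.6 (0 to 77.9), against 11.5 (0 to 60.7) in the chondrocytes, and all 11 cartilage markers other than Acan had lower means. The 11 were not alike in this, since 2 profiles carried neither Ibsp nor Col1a2.

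Phex was at high levels in some of these profiles and at 0 in most. It stood at 9.64, 8.91, 8.19, 6.93 and 6.71 in 5 profiles and at 0 in the other 6. The 3 highest values exceeded the highest of the chondrocytes, 7.59. Detection was 45.5% (16.7 to 76.6) with Acan below 5, against 20.5% (14.8 to 27.2) with Acan at least 5, and the mean level was 3.67 ± 4.29 with Acan below 5 and 0.87 ± 1.89 above, a difference of 2.80. The 5 profiles with Phex were exactly those with Bglap, and all 5 had Dmp1, Col1a1 and Ifitm5, with Col1a1 from 12.39 to 13.28. Of the 6 profiles without Phex, 1 had Dmp1, 3 had Col1a1 and 2 had Ifitm5. Genes detected were 3846, 4118, 2527, 2399 and 3445 in the 5 with Phex, from the highest Phex level down. In the 6 without Phex they were 2187, 3412, 2432, 3018, 2757 and 2295. Not all markers told of bone, as the osteoblast gene Runx2 was detected in 1 of the 5 and 1 of the 6. The cartilage marker Sox9 stood at 3.98, 2.81, 1.83, 5.56 and 5.18 in the 5 profiles with Phex. In the 6 without Phex, Sox9 was at 6.12, at 0.74 or at 0. Bglap and Bglap2 are near-identical copies between which reads can be split, and Bglap2 was detected in 4 of the 5 profiles with Phex and 2 of the 6 without, so the match with Bglap is uncertain.

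Slc13a5 was detected in 7 of the 11 profiles, at 6.68, 5.31, 5.25, 5.18, 4.59, 4.42 and 3.13, and was 0 in the other 4. These 7 were exactly the profiles with Ifitm5, the closest match among the bone markers compared, picked out after the values were seen. Detection status matched in 10 of the 11 profiles for Col1a1 and Spp1, and in 9 for Col1a2, Bglap, Sp7, Serpinf1 and Ibsp. It matched in 8 for Bglap2, Dmp1 and Pdpn, and in 4 for Runx2. The 7 profiles took in all 5 with Phex. Detection was 63.6% (30.8 to 89.1) with Acan below 5, against 69.3% (61.9 to 76.04) above, and the means were 3.14 ± 2.63 with Acan below 5 and 3.27 ± 2.50 above. Levels of Slc13a5 in Acan-low cells thus fell within the chondrocyte range.

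Smpd3 was lower in the Acan-low cells. It stood at 8.27, 5.34, 5.32, 5.24, 3.89, 3.18 and 2.13 in 7 profiles and at 0 in 4, a detection of 63.6% (30.8 to 89.1), against 94.9% (90.5 to 97.6) with Acan at least 5. The mean level was 3.03 ± 2.85 with Acan below 5 and 6.94 ± 2.36 above, a difference of -3.91. The ranges overlapped, and the highest Acan-low profile exceeded the chondrocyte median of 7.51.

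Ank was detected in 6 of the 11 profiles, at 8.08, 8.01, 7.46, 7.41, 7.23 and 3.77, and was 0 in the other 5. Detection was 54.5% (23.4 to 83.3) with Acan below 5, against 50.6% above, and the means were 3.82 ± 3.83 with Acan below 5 and 2.76 ± 3.02 above, a difference of 1.06. Of the 5 profiles with Phex 3 had Ank, as did 3 of the 6 without. Phex and Ank were 2 of 4 members that passed the size of 1 upwards, against 10.9% of all genes, and Smpd3 was 1 of 4 that passed downwards, against 16.8%. Differences of this size were common between these groups, with a median gene of -0.16 and a median of 2757 genes detected with Acan below 5, against 3463.5 above.

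**Figure D5:**
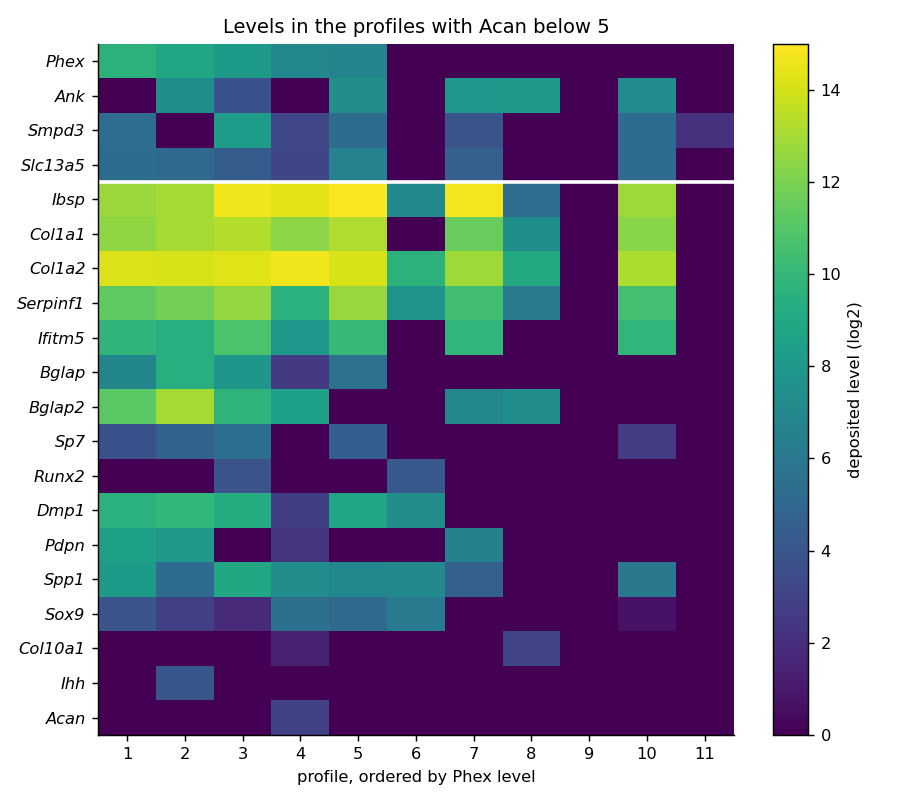
Level (colour, log2) of the 4 genes and of cartilage and bone markers (rows) in the 11 profiles with Acan below 5 (columns), ordered by Phex. The 5 profiles with Phex at 6.71 or more are the 5 with Bglap, while Ank is spread over profiles with and without Phex.

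Other genes of the same pathways were counted from lists that leave out the 4 members and the class markers. Over Col10a1, 5.52% of all genes had means at least 1 higher and 0.821% had means that much lower. Of 16 measured genes of sphingomyelin and ceramide metabolism, 4 were higher and none lower by that size. The highest was Asah1, a lysosomal ceramidase, at 1.57. Of 8 genes of pyrophosphate and phosphate release, 2 were higher, Nt5e at 1.45 (an ectonucleotidase that yields adenosine and phosphate) and Ppa1 at 1.27 (a cytosolic pyrophosphatase). Of 6 in the FGF23 axis, 2 were higher, the vitamin D receptor Vdr at 1.03 and the secretory kinase Fam20c at 1.004, and of 10 citrate genes, 2 were higher, the mitochondrial citrate carrier Slc25a1 at 1.22 and the isocitrate dehydrogenase subunit Idh3a at 1.11. None of 10 genes for mineralized matrix passed the size. With genes detected regressed out, these counts were 1, 0, 0, 0 and 0 in the same order, with 1 sphingolipid gene lower. Of all genes, 1.30% were then higher and 1.80% lower, while Slc13a5 and Smpd3 kept differences of 2.25 and 1.85.

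Over Ihh, 2 of 16 sphingolipid genes, none of 8 pyrophosphate genes, 1 of 6 FGF23 genes, 1 of 10 citrate genes and 1 of 10 matrix genes were higher by that size, against 2.79% of all genes, and none was lower. These counts were 0, 0, 1, 0 and 0 with genes detected regressed out, against 0.339% of all genes. Over Ibsp, the citrate list had 6 of 10 genes higher, with a list median of 1.08 beside 0.17 for all genes. Its highest were citrate synthase Cs at 1.65, Slc25a1 at 1.46 and the mitochondrial isocitrate dehydrogenase Idh2 at 1.37. With genes detected regressed out the list had 1 higher, 1 lower and a median of 0.45 beside 0.02 for all genes. Of the other lists over Ibsp, 3 of 16 sphingolipid, 1 of 8 pyrophosphate, 1 of 6 FGF23 and 2 of 10 matrix genes were higher, against 6.53% of all genes, the matrix genes being Spp1 at 2.46 and Col1a1 at 1.84. These counts were 0, 0, 0 and 2 with genes detected regressed out, against 1.11% of all genes.

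With Acan below 5, 3 of 8 pyrophosphate genes were lower and none was higher, where 16.8% of all genes were lower and 10.9% higher, with Ppa1 at -4.97, Nt5e at -3.67 and the pyrophosphate-producing Enpp1 at -2.32. The sphingolipid list was split, with 5 of 16 higher and 4 lower. Sgms2, a sphingomyelin synthase, was lower by -3.99 as Smpd3 was, and Sgpl1, the sphingosine-phosphate lyase, was higher by 2.56. In the FGF23 list 2 of 6 were higher, Dmp1 at 3.95 and Fam20c at 1.11, as was Phex. The citrate list had 2 of 10 higher and 2 lower, and the matrix list had 6 of 10 higher, led by Col1a1 at 8.13, and 1 lower, Mgp, a calcification inhibitor of cartilage, at -8.37.

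The genes whose levels ranked cells most like each member were sought among 5379 genes detected in at least 20% of the chondrocytes. For Smpd3 they were Panx3, a channel protein of prehypertrophic chondrocytes, at a rho of 0.65, Serinc5 at 0.58, adenosine kinase Adk at 0.58, Ccdc80 at 0.54 and Dap at 0.52. For Slc13a5 they were Col10a1 at 0.58, Ccdc80 at 0.53, Smpd3 at 0.51, Panx3 at 0.51 and Cd200 at 0.48. The lists of Smpd3 and Slc13a5 thus shared Panx3 and Ccdc80, and Slc13a5 also named Smpd3. For Phex the highest values were weak, with Fut8 and 4933409K07Rik at 0.36, Spp1 at 0.35, Col10a1 at 0.34 and Agt at 0.33. For Ank they were weaker still, with Htra1 and Api5 at 0.27, Sdc1 and Gtf3c3 at 0.26 and Arhgap31 at 0.25. With genes detected held constant, the rho of Slc13a5 with Col10a1 was 0.53, and of Smpd3 with Ihh 0.30 beside 0.35 without that correction.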

How the data were processed

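Single-cell RNA-seq of 217 cells of 1 group was used. The authors deposited log2 values per gene and cell, already scaled for depth, as back-transformed totals ran from 394406 to 616257. The base of 2 and a pseudocount of 1 were inferred from the values. TopHat and mm10 are named per the submitters' processing notes, and the quantifier, annotation, filters and unit were not given in the sources used here. Depth per cell is unknown, and an exact 0, as 62.3% of values are, can be a failed estimate. Each gene is above 0 in at least 10 columns, and 1 row with no gene name was left out. No doublet caller was run.

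Columns with r above 0.95 were averaged and 1 mixed column was dropped, leaving 187 profiles, 176 with Acan at least 5 and 11 below. Of the 176, 137 had Col10a1 and 39 did not, 61 had Ihh and 115 did not, and 37 had Ibsp and 139 did not. A gene was detected at a back-transformed value of 1 or more, shares have exact Clopper-Pearson intervals at 95%, and mean levels were compared on the log2(value + 1) scale, where a difference of at least 1 was counted. With 1 sample there is no test. The genes named were the 4 members, the markers, up to 3 genes at each end of each list and contrast past that size, and 5 genes per member by Spearman's rho. The genes set beside Phex and those in the profiles with Acan below 5, the overlapping genes, and the marker combinations, Col10a1 ranges and osteoblast marker split were chosen after the values were seen. The members and lists were chosen with earlier results of these data known. Alternatives were other detection thresholds, Acan thresholds of 3 and 7, repeats kept apart, the mixed column kept in and profiles split by genes detected. Others were upper-quartile scaling, a pseudocount of 0.1 and genes detected regressed out. Steps were tested on simulated data. The tools were matplotlib 3.10.9, SciPy 1.17.1, pandas 2.3.3, NumPy 2.4.6 and Python 3.11.15.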

Additional observations from a re-analysis of the deposited data

How the results depend on the processing

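No paired analysis was possible because all cells form 1 group with no shared replicate numbers. Depth per cell is unknown, and shares rest on as few as 7 profiles. In the split by genes detected they rest on as few as 3 with Acan below 5 and 4 with Ibsp. All but 2 shares stayed within their counting error. All but 35 mean differences moved by less than the SD of a level between repeats. Of 88 shares of all genes past the size, 57 stayed within 1.5 times. These counts take in comparisons that could not move. An Acan threshold of 3 selected the same profiles, and detection thresholds do not enter the means over Acan. The SD between repeats is also not the error of a difference of means. Ank over Col10a1 at -0.39 beside -0.996 and Phex over Ihh at 0.07 beside 0.31 counted as within it. No called value changed sign. The cause of each change below was not tested.

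With genes detected regressed out, the difference over Col10a1 was 1.85 for Smpd3 and 2.25 for Slc13a5, that over Ihh was 0.81 for Smpd3 and 0.69 for Slc13a5, that over Ibsp was -0.26 for Smpd3 and 0.67 for Slc13a5, and that over Acan was -3.22 for Smpd3 and 0.55 for Slc13a5. The share of all genes past the size was then 1.30% higher and 1.80% lower over Col10a1 (5.52% and 0.821% as reported), 0.339% and 0.370% over Ihh (2.79% and 0.205%), and 1.11% and 1.82% over Ibsp (6.53% and 0.893%).

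With a pseudocount of 0.1, differences were 1.26 for Phex, 3.04 for Smpd3 and 4.59 for Slc13a5 over Col10a1, 2.07 for Slc13a5 over Ihh, 1.84 for Phex and 2.15 for Slc13a5 over Ibsp, and 3.64 for Phex and -5.00 for Smpd3 over Acan. Shares of genes were 14.8% higher and 2.40% lower over Col10a1, 11.04% and 0.914% over Ihh, 18.2% and 2.12% over Ibsp, and 16.96% and 27.7% over Acan (10.9% and 16.8% as reported). Ank then passed the size downwards over Col10a1, at -1.38, and over Ihh, at -1.02.

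In profiles with at least the median number of genes detected, the difference was 2.24 for Smpd3 over Col10a1, 1.002 for Smpd3 over Ihh, 0.24 for Smpd3 and 0.97 for Slc13a5 over Ibsp, and 7.41 for Phex, 1.97 for Ank and 1.83 for Slc13a5 over Acan, where Phex detection differed by 74.7 percentage points. Shares of genes were 8.68% higher and 6.77% lower over Col10a1, 1.36% lower over Ihh, 3.18% higher and 2.26% lower over Ibsp, and 18.4% higher over Acan. Phex over Col10a1 was then 1.11 and Ank over Ihh was -1.19.

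In profiles with fewer genes, the difference was 0.45 for Slc13a5 over Ihh. Over Ibsp, with only 4 profiles with the marker against 81 without, it was -1.04 for Smpd3, with detection -16.4 percentage points apart. Over Acan it was 1.17 for Phex, -3.54 for Smpd3 and -0.43 for Slc13a5. Shares of genes were 3.38% higher and 2.21% lower over Col10a1, 1.92% lower over Ihh, and 14.3% higher and 10.2% lower over Ibsp. Ank was then -1.53 over Col10a1, and its difference over Acan fell under the size, at 0.88.

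With detection at any value above 0, Slc13a5 differed by 2.36 over Col10a1 and 1.07 over Ibsp, with 3.58% of genes higher over Ibsp, and Ank by -1.15 over Col10a1. With a back-transformed value of at least 10, Smpd3 differed by 2.15 and Slc13a5 by 2.62 over Col10a1, with 1.73% of genes lower over Ibsp. With repeats kept apart, Smpd3 differed by 0.079 over Ibsp, with 0.585% of genes lower. With upper-quartile scaling, 0.339% of genes were lower over Col10a1, and 4.23% were higher and 0.0821% lower over Ihh. With an Acan threshold of 7, the difference over Acan was 2.23 for Phex and -0.65 for Slc13a5. The Phex difference over Ibsp, 0.97 as reported, also passed the size with upper-quartile scaling or the mixed column kept in, at 1.06 each. It was 1.23 with repeats kept apart and 1.19 with a back-transformed value of at least 10. In profiles with fewer genes, of which 4 had Ibsp, it was 1.38. It was 0.65 with genes detected regressed out, 0.72 with detection at any value above 0 and 0.91 in profiles with at least the median number of genes. Ank over Col10a1, -0.996 as reported, was -0.39 with repeats kept apart. The gap in Phex detection over Ibsp was 13.6 percentage points with a back-transformed value of at least 10, and that over Acan was 9.71 in profiles with fewer genes and 17.8 with an Acan threshold of 7.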
